A study of Mus musculus with 8 samples.

Results

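The aminoacyl-tRNA synthetase genes of mouse kidney were compared between mice with both copies of Pus1 mutated and wild-type mice. The list held 36 genes, 20 for enzymes of the cytosol and 16, with symbols ending in 2, for enzymes of the mitochondrion. A gene was kept where a probe was marked well above background in at least 4 of the 8 channels, and it was represented by its brightest such probe. This kept 34 of the 36 genes, 20 of 20 cytosolic and 14 of 16 mitochondrial, among 22123 genes or unnamed transcripts tested in all. Of the 34, 33 were well above background in all 8 channels. The tyrosine enzyme Yars lay closest to the limit, with 7 of 8 channels. Mars2, for the methionine enzyme of mitochondria, had 3 of 8 channels, and Nars2, for the asparagine enzyme, had 0 of 8, so neither was tested.

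RNA came from kidney cross sections, frozen, of 4 mice homozygous for the mutant allele and 4 wild types. All 8 animals were 14 to 16 weeks old and were on a C57BL/6J background after 5 generations of backcrossing. On each of 4 dual-colour Agilent arrays a mutant mouse was set against a wild type that shared its sex and replicate number, female on arrays 1 and 2 and male on arrays 3 and 4. The mutant sample was labelled with Cy5 on arrays 1 and 3 and with Cy3 on arrays 2 and 4. The series title speaks of a knockout. The labels name neither the altered stretch of Pus1 nor a tissue-specific driver.

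Aminoacyl-tRNA synthetases join each amino acid to its tRNA. The nucleus encodes a set for the cytosol and a second set that is imported into mitochondria, where it serves the proteins of the respiratory chain that mitochondrial DNA encodes. Gars and Kars serve both compartments from a single gene, and mitochondria make their glutamine tRNA by way of the glutamate enzyme Ears2 and an amidotransferase. In the kidney the mitochondrial set is known from human disease, since loss of the serine enzyme SARS2 causes renal failure in infancy. Pus1 converts uridine to pseudouridine in tRNAs of both compartments, and human mutations of PUS1 or of the mitochondrial tyrosine enzyme YARS2 cause the same syndrome of myopathy, lactic acidosis and sideroblastic anaemia. Several cytosolic synthetases are also targets of the transcription factor Atf4 in the integrated stress response, which is set off when uncharged tRNA accumulates.

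Atf4 acts through a composite element, named CARE, in the promoters or introns of its targets. RefSeq promoter windows of the GRCm38.p6 build, running from 250 bases before to 50 bases after the gene start, were matched for 27 of the 36 genes and searched on both strands for the 9 letters TGATGNAAT. The letters were found in 3 of 28 windows of these genes, those of Aars, Gars and Iars (11.1% of the 27 genes). Counted by window and not by gene, they were found in 317 of all 32851 windows (0.965%). Variants of the element with other letters were not searched. The stretches around the match in the alanine enzyme gene Aars and the glycine enzyme gene Gars are shown because Atf4 targets are among the synthetase groups compared here. Both lie on the plus strand, at chr8:111033684-111033782 for Aars and chr6:55037925-55038000 for Gars, and capitals mark the element, which reads on the opposite strand.
Aars: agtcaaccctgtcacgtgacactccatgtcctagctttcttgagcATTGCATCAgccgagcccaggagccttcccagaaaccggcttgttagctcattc
Gars: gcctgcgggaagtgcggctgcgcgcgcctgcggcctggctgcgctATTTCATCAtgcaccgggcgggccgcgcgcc
The element lay 105 to 113 bases before the start of Aars and 23 to 31 bases before that of Gars. In Iars, the isoleucine enzyme gene, the match lay after the start. A match is a description of these letters and was not tested as a binding site.

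The labels were checked against Pus1 itself. Normalized log2 intensity of Pus1 was 7.46, 7.49, 6.92 and 7.36 in mutant kidneys 1 to 4, against 10.39, 10.34, 10.00 and 10.34 in wild-type kidneys 1 to 4. Every mutant sample lay below every wild-type sample, with a fitted log2 ratio of -2.96 ± 0.07 (SE, 4 arrays; limma adjusted p = 0.000412). Correlations between samples ranged from 0.955 to 0.995, and all 10 kidney tubule and podocyte markers were well above background in all 8 channels. Markers of perirenal fat and urothelium, which a kidney section can carry, differed widely between animals. Summed linear intensity of 8 fat markers was 36300 to 129000 in mutant and 25500 to 306000 in wild-type kidneys, and that of 7 urothelium markers was 2260 to 7600 in mutant and 1430 to 12700 in wild-type kidneys. The median mutant over wild-type log2 ratio of the fat markers was -1.70, -1.85, 1.90 and 0.51 on arrays 1 to 4. In bulk tissue, fewer cells of a type and less RNA per cell cannot be told apart.

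No synthetase gene passed the test between Pus1 mutant and wild-type kidneys. Of 34 genes, 0 passed an adjusted p of 0.05 in the limma fit of mutant over wild-type ratios, against 0.0271% of all items (6 of 22123), and 0 had an unadjusted p under 0.05, against 4.46% of all items. In 0 of 34 genes did the mutant and wild-type samples separate, against 0.655% of all items. Fitted log2 ratios ran from -0.13 for the cytosolic valine enzyme Vars to 0.15 for the mitochondrial cysteine enzyme Cars2, genes named here as the ends of the range. Without array 1 the ratio of Vars was 0.00, and with the mean of its kept probes that of Cars2 was 0.08. The 95% intervals of all 34 ratios lay within 1.5-fold in both directions, between log2 values of -0.39 and 0.35, as did those of 96.6% of all items. The standard error of a member's ratio was 0.069 to 0.13, with a median of 0.077, against 0.081 over all items.

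Both sets had median ratios near 0. The median mutant over wild-type log2 ratio was -0.0011 for the 20 cytosolic genes, with 10 ratios above 0 and 10 below. It was 0.044 for the 14 mitochondrial genes, with 10 above 0 and 4 below, and -0.0045 for all items, of which 48.0% were above 0. On arrays 1 to 4 the cytosolic median was -0.037, 0.047, 0.040 and 0.020, and the mitochondrial median was -0.0086, 0.14, -0.034 and 0.076. The mitochondrial median was above 0 on the arrays with the mutant in Cy3 and below 0 on those with the mutant in Cy5. The mitochondrial median was -0.0035 without array 2 and 0.12 without array 4. The median size of a ratio, without its sign, was 0.054 for the members and 0.064 for all items.

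**Figure D1:**
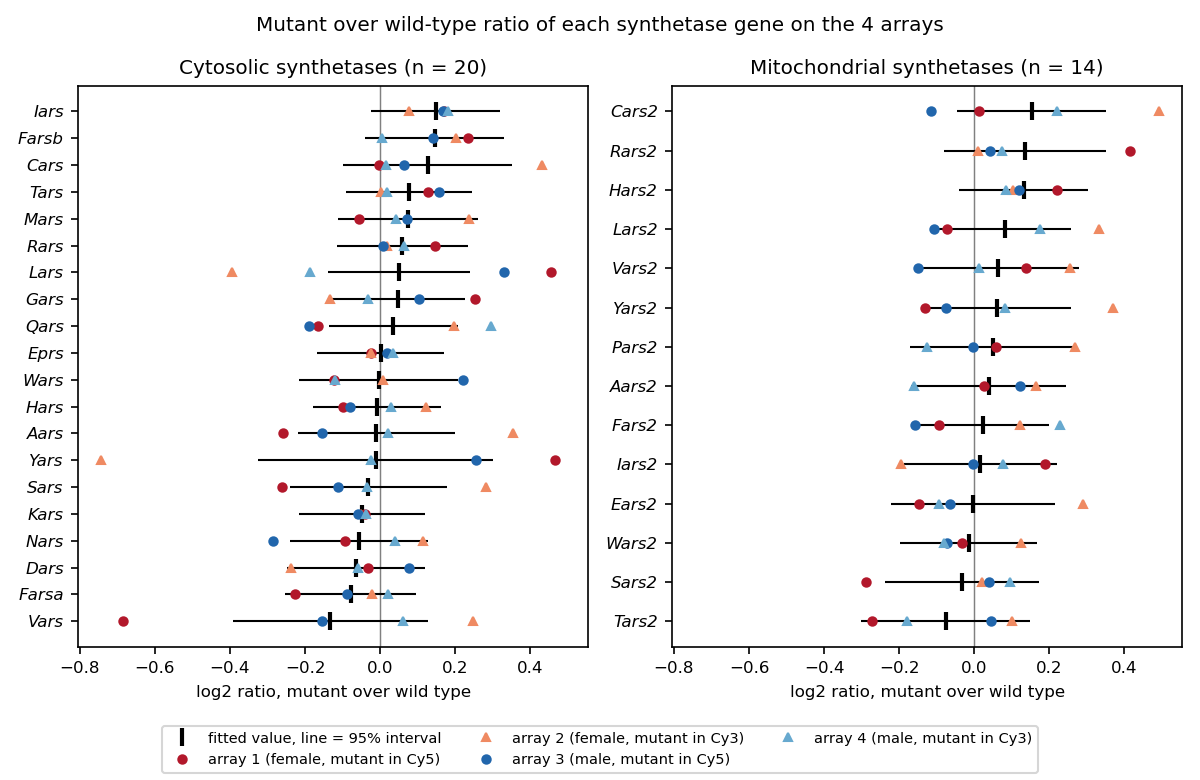
Mutant over wild-type log2 ratio of each of the 20 cytosolic (left) and 14 mitochondrial (right) synthetase genes, with circles for the arrays with the mutant in Cy5 and triangles for those with the mutant in Cy3, red shades for females and blue shades for males. Vertical ticks are the limma fitted ratios and horizontal lines their 95% intervals. All 34 intervals include 0 and stay between -0.39 and 0.35.

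Among the cytosolic genes the ratio had the same sign on all 4 arrays in 5 of 20. It was above 0 for Iars, Farsb, Tars and Rars and below 0 for Kars. Over both compartments this made 6 genes above 0 on all 4 arrays (4.24% of all items) and 1 gene below 0 on all 4 (3.91% of all items).

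Iars, which charges tRNA with isoleucine and sits in the multi-synthetase complex, had the smallest p of the list. Its log2 intensity was 10.88, 10.79, 11.05 and 11.13 in mutant kidneys 1 to 4, against 10.71, 10.71, 10.89 and 10.95 in wild-type kidneys 1 to 4. Mutant samples were higher within each array, while the genotypes overlapped across arrays. The fitted log2 ratio of Iars was 0.15 ± 0.07 (95% interval -0.02 to 0.32; limma adjusted p = 0.980).

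Farsb encodes the beta subunit of the cytosolic phenylalanine enzyme, which works as a tetramer with the alpha subunit Farsa. Log2 intensity of Farsb was 10.63, 10.42, 11.05 and 10.95 in mutant kidneys, against 10.40, 10.22, 10.91 and 10.94 in wild-type kidneys. The genotypes overlapped, the gap on array 4 was near 0, and the fitted log2 ratio was 0.15 ± 0.08 (limma adjusted p = 0.980). Its partner Farsa had a log2 ratio of -0.08 by its brightest probe and 0.03 with the mean of its kept probes, so no direction can be given for it.

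Tars, the threonine enzyme, had log2 intensities of 11.69, 11.42, 11.93 and 11.82 in mutant kidneys and 11.56, 11.42, 11.78 and 11.80 in wild-type kidneys. Rars, the arginine enzyme, had 7.47, 7.57, 7.55 and 8.08 in mutant kidneys and 7.32, 7.56, 7.54 and 8.02 in wild-type kidneys. Both genes overlapped between the genotypes, and the spread between animals was larger than the gap within an array. Their fitted log2 ratios were 0.08 ± 0.07 for Tars and 0.06 ± 0.07 for Rars, and that of Rars was 0.18 with Agilent's processed signals.

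Kars, which supplies lysyl-tRNA to both compartments, was the single member below 0 on all 4 arrays, and its values were looked up after this count. Its log2 intensity was 13.18, 13.22, 12.86 and 13.01 in mutant kidneys, against 13.22, 13.27, 12.92 and 13.04 in wild-type kidneys. The samples overlapped, and the fitted log2 ratio was -0.05 ± 0.07.

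In the mitochondrial set, 2 of 14 genes had a ratio of the same sign on all 4 arrays, both above 0. Hars2, the mitochondrial histidine enzyme, had log2 intensities of 10.80, 10.83, 11.65 and 11.53 in mutant kidneys, against 10.58, 10.72, 11.53 and 11.45 in wild-type kidneys. Rars2, the mitochondrial arginine enzyme, had 12.02, 11.81, 12.42 and 12.35 in mutant kidneys, against 11.60, 11.80, 12.38 and 12.27 in wild-type kidneys. For both genes the split between arrays 1 and 2 (female) and arrays 3 and 4 (male) was wider than the split between genotypes. The fitted log2 ratio was 0.13 ± 0.07 for Hars2 (95% interval -0.04 to 0.30; limma adjusted p = 0.980). That of Rars2 was 0.14 ± 0.09 (95% interval -0.08 to 0.35; limma adjusted p = 0.980), with 0.41 on array 1, against 0.01, 0.04 and 0.08 on arrays 2 to 4. Without array 1 the fitted log2 ratio of Rars2 was 0.04.

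For 11 amino acids a cytosolic gene and the mitochondrial gene with the same symbol ending in 2 were both measured. The genes for phenylalanine, glutamate and proline, whose symbols do not pair in this way, are outside this count. No gene of the 11 pairs passed the genotype test. The cysteine pair had log2 ratios of 0.13 for Cars, which was 0.02 without array 2, and 0.15 for Cars2. Yars2, whose human counterpart shares a disease with PUS1, had log2 intensities of 10.30, 10.62, 10.04 and 10.01 in mutant kidneys, against 10.43, 10.25, 10.12 and 9.93 in wild-type kidneys. The genotypes overlapped, with a fitted log2 ratio of 0.06 ± 0.08 (-0.01 without array 2), and its cytosolic counterpart Yars stood at -0.01 ± 0.13.

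The dye moved with part of the spread between arrays. In 17 of 34 genes, 12 cytosolic and 5 mitochondrial, the ratios of the arrays with the mutant in Cy5 did not overlap those with the mutant in Cy3, against 56.8% of all items. The limma dye term passed an adjusted p of 0.05 in 0 of 34 genes (2.17% of all items) and had an unadjusted p under 0.05 in 5 of 34, against 24.1% of all items. An example picked for its gap is Lars, the cytosolic leucine enzyme. Its log2 ratio was 0.45 and 0.33 on arrays 1 and 3, against -0.39 and -0.19 on arrays 2 and 4, and the fitted value with the dye term was 0.05.

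The multi-synthetase complex, which holds several cytosolic enzymes on a scaffold of Aimp1, Aimp2 and Eef1e1, had ratios near 0. Of its 8 enzymes 0 passed for genotype, 6 had a ratio above 0 and 2 below, and the median log2 ratio was 0.043. The 12 cytosolic synthetases known as Atf4 targets had a median of 0.024 with 0 passing, and the other 8 cytosolic genes had a median of -0.027 with 0 passing. Aars and Gars, whose promoters hold the CARE letters before the start, had log2 ratios of -0.01 and 0.05.

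Among 15 accessory genes of aminoacylation 0 passed for genotype by the limma adjusted p and 0 had an unadjusted p under 0.05. Their median log2 ratio was 0.022, with 10 above 0 and 5 below. Gatc, a subunit of the amidotransferase that makes mitochondrial glutaminyl-tRNA, was the 1 gene with a ratio of the same sign on all 4 arrays. Its log2 intensity was 8.54, 8.49, 8.52 and 8.22 in mutant kidneys, against 8.42, 8.36, 8.29 and 8.19 in wild-type kidneys, a fitted log2 ratio of 0.13 ± 0.07.

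The integrated stress response was read through Atf4 and its targets outside the synthetase family. Of 24 measured genes 0 passed the adjusted threshold, with 12 ratios above 0, 12 below and a median log2 ratio of 0.0085. The median differed between arrays, at -0.35, 0.056, 0.12 and 0.071 on arrays 1 to 4. In 3 of the 24, Asns, Atf5 and Psph, the unadjusted limma p was under 0.05, against 4.46% of all items. Asns, which makes asparagine and is a standard readout of the response, had log2 intensities of 11.36, 11.36, 10.07 and 10.12 in mutant kidneys, against 10.84, 10.92, 9.33 and 10.03 in wild-type kidneys. The mutant was higher on each array, with a fitted log2 ratio of 0.45 ± 0.09 (limma adjusted p = 0.980). Atf5, a transcription factor of the response, had 12.97, 12.99, 12.39 and 12.85 in mutant kidneys, against 12.84, 12.87, 12.13 and 12.33 in wild-type kidneys, a fitted log2 ratio of 0.26 ± 0.09 (limma adjusted p = 0.980). Neither gene met the adjusted threshold, and both were lower in males than in females in each genotype.

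**Figure D2:**
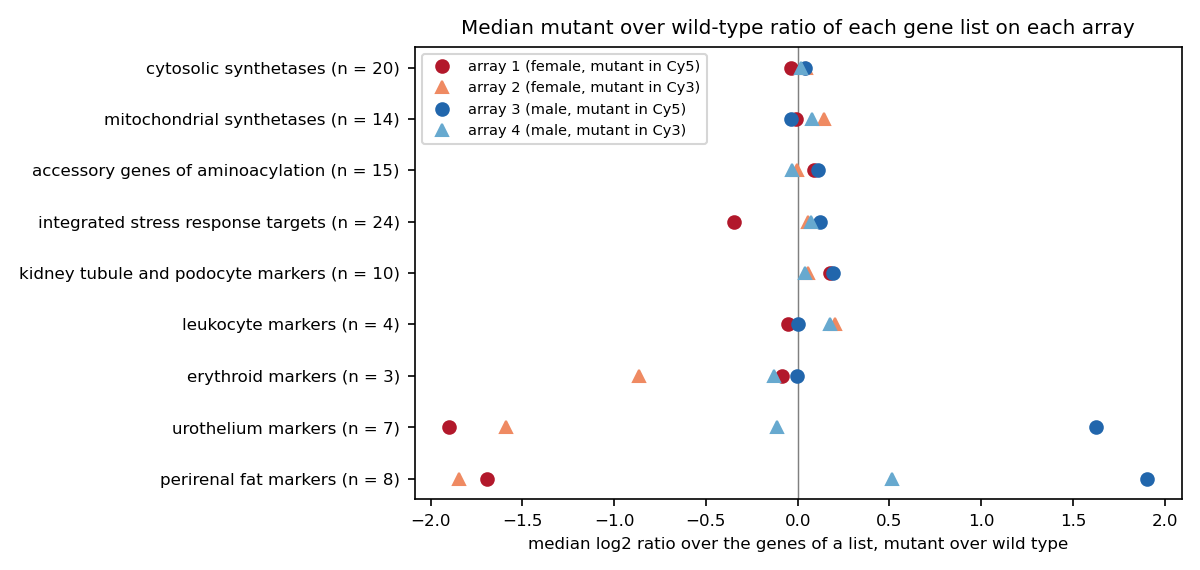
Median mutant over wild-type log2 ratio of each gene list on each of the 4 arrays, with 1 point per array, circles for the mutant in Cy5 and triangles for the mutant in Cy3. The 2 synthetase sets stay between -0.037 and 0.14 on every array, while the fat markers range from -1.85 to 1.90.

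On arrays 1 to 4 the median log2 ratio of the fat markers was -1.70, -1.85, 1.90 and 0.51. That of the cytosolic genes was -0.037, 0.047, 0.040 and 0.020, and that of the mitochondrial genes was -0.0086, 0.14, -0.034 and 0.076. The part of these markers in the ratios of single synthetase genes was not tested.

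More synthetase genes passed between the sexes than between the genotypes. In the limma fit on the mean of both channels of each array, 11 of 34 synthetase genes (32.4%) passed an adjusted p of 0.05 between male and female kidneys, against 43.8% of all items. By the brightest probes, 6 were higher in males (18.0% of all items) and 5 lower in males (25.8% of all items). Hars2, Wars2, Rars2, Iars2, Farsb and Hars were higher in males, and Yars2, Nars, Mars and Qars were lower in males. The fifth, Cars2, was lower by its brightest probe and higher by its other kept probe. By compartment, 6 of 14 mitochondrial genes passed, 4 higher and 2, Yars2 and Cars2, lower in males, and 5 of 20 cytosolic genes passed, 2 higher and 3 lower. In this fit the share of members that passed was below that of all items. With each channel fitted as its own value, 15 of 34 members passed, against 45.5% of all items. With female arrays at slide positions 1 and 2 and male arrays at 3 and 4, sex and slide position cannot be told apart.

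Hars2 showed the largest difference of the 34 genes. In male kidneys its log2 intensity was 11.65 and 11.53 in mutants and 11.53 and 11.45 in wild types, and in female kidneys it was 10.80 and 10.83 in mutants and 10.58 and 10.72 in wild types. All 4 male samples lay above all 4 female samples, by 1.75-fold (log2 difference 0.81 ± 0.08, SE, 2 arrays per sex; limma adjusted p = 0.0034). The male minus female difference was 0.78 in mutants and 0.84 in wild types. The cytosolic histidine enzyme gene Hars, with 0 genes between it and Hars2 on chromosome 18 in the reference table, was also higher in males, by 0.33 ± 0.09 on the log2 scale (limma adjusted p = 0.0333).

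Wars2 charges mitochondrial tRNA with tryptophan. Its log2 intensity was 9.08 and 9.13 in male mutants and 9.15 and 9.21 in male wild types, against 8.60 and 8.64 in female mutants and 8.63 and 8.51 in female wild types. The sexes did not overlap, and the log2 difference was 0.55 ± 0.08 (limma adjusted p = 0.00668). Another kept probe of Wars2, dimmer and well above background in 5 of 8 channels, gave a log2 difference of 0.06 (limma adjusted p = 0.666 over all probes).

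Rars2 and Farsb differed by a similar amount. Rars2 had log2 intensities of 12.42 and 12.35 in male mutants and 12.38 and 12.27 in male wild types, against 12.02 and 11.81 in female mutants and 11.60 and 11.80 in female wild types (difference 0.55 ± 0.08; limma adjusted p = 0.00722). Farsb had 11.05 and 10.95 in male mutants and 10.91 and 10.94 in male wild types, against 10.63 and 10.42 in female mutants and 10.40 and 10.22 in female wild types (difference 0.55 ± 0.10; limma adjusted p = 0.0117). In both genes all male samples lay above all female samples. Farsa, whose product pairs with that of Farsb, had a log2 difference of 0.07 ± 0.08 by its brightest probe and of -0.47 by another probe (limma adjusted p = 0.0143 over all probes), so its direction depends on the probe.

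Iars2, the mitochondrial isoleucine enzyme, had log2 intensities of 10.66 and 10.76 in male mutants and 10.66 and 10.68 in male wild types, against 10.38 and 10.18 in female mutants and 10.19 and 10.38 in female wild types. The sexes did not overlap, with a log2 difference of 0.41 ± 0.08 (limma adjusted p = 0.0133), while its other kept probe gave 0.18 (limma adjusted p = 0.127 over all probes).

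Yars2 went the other way. Its log2 intensity was 10.04 and 10.01 in male mutants and 10.12 and 9.93 in male wild types, against 10.30 and 10.62 in female mutants and 10.43 and 10.25 in female wild types. All male samples lay below all female samples, with a log2 difference of -0.38 ± 0.09 (limma adjusted p = 0.0227). The cytosolic asparagine enzyme Nars was lower in males by a log2 difference of -0.28 ± 0.07 (limma adjusted p = 0.0347). Mars and Qars, for methionine and glutamine, had log2 differences of -0.26 ± 0.08 and -0.26 ± 0.07 (limma adjusted p = 0.0487 and 0.0419). In these 3 genes, too, all male samples lay below all female samples.

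Cars2 had a log2 difference of -0.27 ± 0.08 (limma adjusted p = 0.0418), but its samples overlapped and its probes disagreed. The other kept probe of Cars2 gave a log2 difference of 0.40 (limma adjusted p = 0.0149 over all probes), so no direction can be given for the gene. Wars, the cytosolic tryptophan enzyme that interferon induces, did not pass by its brightest probe (0.03 ± 0.09), while its dimmer probe gave -0.33 (limma adjusted p = 0.0373 over all probes).

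**Figure D3:**
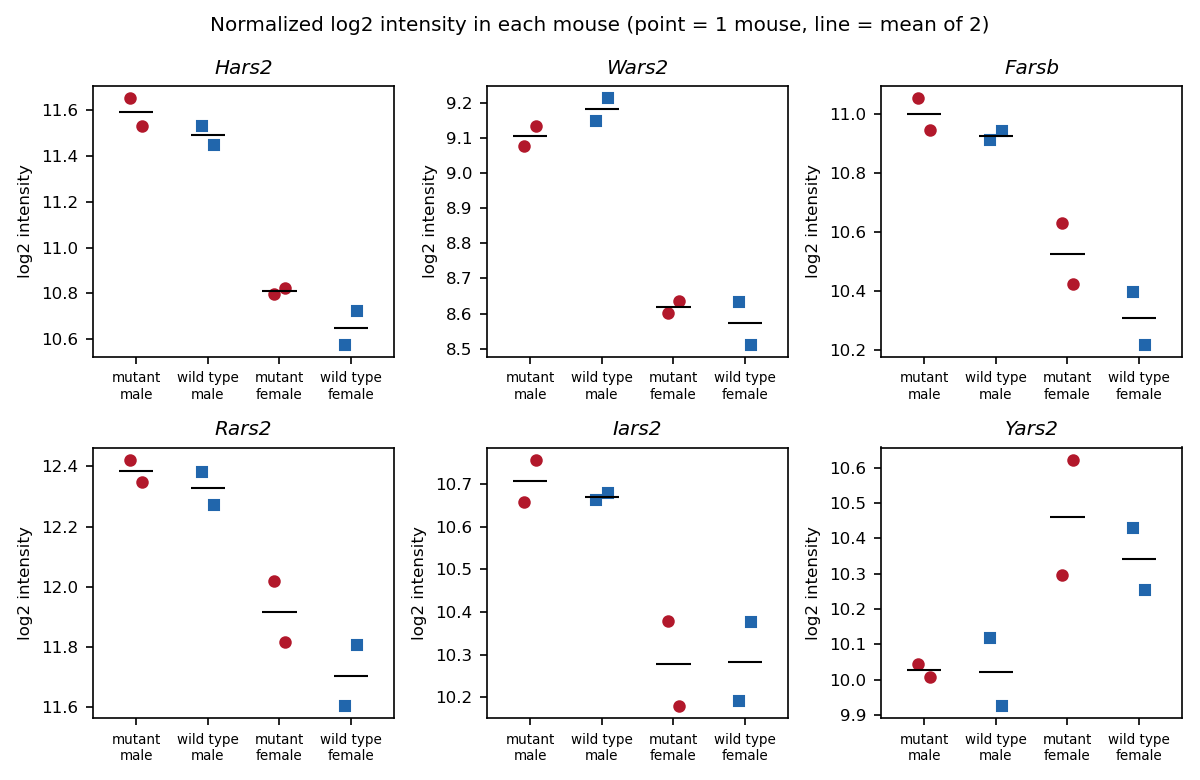
Normalized log2 intensity of the 6 synthetase genes with the largest sex difference, with 1 point per mouse (red circles mutant, blue squares wild type) and a line at the mean of the 2 mice of each genotype and sex. Males lie above females without overlap for Hars2, Wars2, Farsb, Rars2 and Iars2, and below them for Yars2.

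The 23 genes that did not pass had log2 differences from -0.31 for Pars2 to 0.34 for Eprs. Across the family, all male samples lay above all female samples in 9 of 34 genes, against 18.0% of all items, and below them in 5, against 25.0% of all items. The median male minus female log2 difference was 0.14 for the cytosolic and 0.083 for the mitochondrial genes, against -0.10 for all items.

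**Figure D4:**
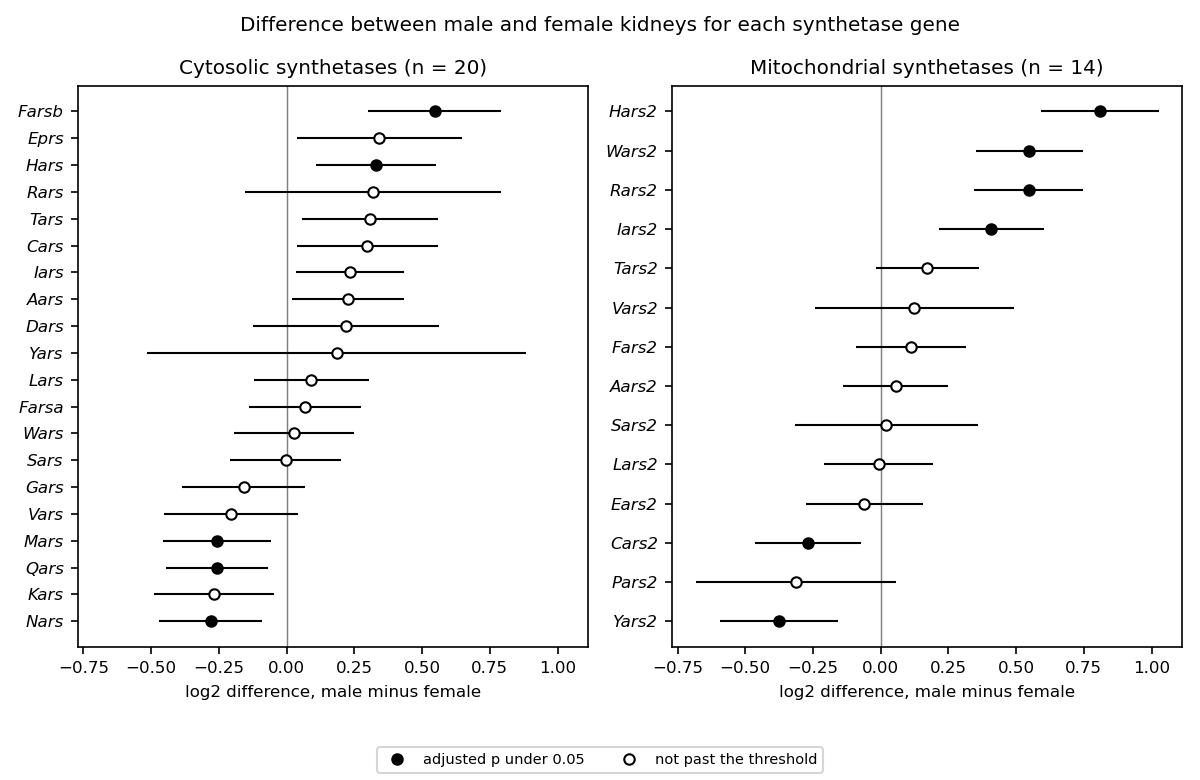
Male minus female log2 difference of each cytosolic (left) and mitochondrial (right) synthetase gene, with 95% intervals from limma. Filled points passed an adjusted p of 0.05, and Hars2 lies farthest from 0 at 0.81.

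The number of sex differences depended on single arrays and on the scaling. With an array left out, a sex rests on a single array, and fewer members and fewer of all items passed. Without scaling between arrays 7 members passed, 2 higher and 5 lower in males, against 36.4% of all items. The log2 difference of Hars2 was 0.63 to 0.87 over all 14 alternatives.

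Of 15 accessory genes 5 passed between the sexes (33.3%, against 43.8% of all items), 2 higher and 3 lower in males. Prorsd1, related to bacterial proteins that clear mischarged prolyl-tRNA, was higher in males by a log2 difference of 1.27 ± 0.09 (limma adjusted p = 0.00115). Gatb, a subunit of the mitochondrial amidotransferase, was higher in males by 0.31 ± 0.08 (limma adjusted p = 0.0384). The complex scaffold genes Eef1e1 and Aimp2 were lower in males, with log2 differences of -0.54 ± 0.08 and -0.30 ± 0.09 (limma adjusted p = 0.00822 and 0.0489). Of the 8 enzymes of the complex 2 passed, Mars and Qars, both lower in males, while 5 of the 8 differences lay above 0 and their median was 0.16.

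Of 24 measured integrated stress response targets 13 passed between the sexes (54.2%, against 43.8% of all items). Of the 24, 11 were lower in males, against 25.8% of all items, and 2 were higher, against 18.0%. Asns had the largest log2 difference, -1.23 ± 0.14 (limma adjusted p = 0.00414), followed by the hormone gene Stc2 at -1.19 ± 0.15 and the amino acid transporter chain Slc3a2 at -0.98 ± 0.09. Cth, Atf3, Phgdh, Psph, Eif4ebp1, Trib3, Chac1 and Atf5 were also lower in males, and Psat1 and Gdf15 were higher. Of the 12 cytosolic synthetases known as Atf4 targets 2 passed, Nars and Mars, both lower in males, while 8 of the 12 differences lay above 0 and their median was 0.14. Atf4 itself had a log2 difference of 0.01 ± 0.12.

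Markers of other cells and of the nephron were compared between the sexes too. Of 4 measured leukocyte markers 3 passed as lower in males, against 25.8% of all items. The other, Ptprc, had a log2 difference of -0.22 ± 0.09 and did not pass. Summed linear intensities of the 4 were 16700 to 17300 in males and 19400 to 21300 in females. Of 10 kidney markers 4 passed, against 43.8% of all items, with the proximal tubule transporter Slc22a6 higher in males by a log2 difference of 1.24 ± 0.12 (limma adjusted p = 0.00262) and 3 markers lower. Summed fat marker intensity was 25500 to 129000 in males and 36300 to 306000 in females. The part of these shifts in the synthetase differences was not tested.

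The effect of the mutation was also compared between the sexes. The male minus female difference of the mutant over wild-type log2 ratio passed an adjusted p of 0.05 in 0 of 34 synthetase genes, against 0.140% of all items, and had an unadjusted p under 0.05 in 0, against 3.83%. The differences ran from -0.27 for Vars2 to 0.25 for Yars, with 95% intervals between -0.68 and 0.85. With 1 residual degree of freedom a difference of that size was not detectable here.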

How the data were processed

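Per the file headers, Agilent Feature Extraction (version 10.7.3.1) gave the deposited intensity values, as medians over pixels, for every spot and for the area around it, in both colours. The authors' deposited value table holds 1 normalized value per probe and sample, of unstated scale and centring (column medians -0.022 to 0.018). Its within-array differences ran in the same direction as the scanner log2 ratios. They correlated with them by 0.867 to 0.882 over the items tested and by 0.707 to 0.720 over all probes. Over the items tested their SD was 1.48 times that of the scanner ratios. The value table was used as an alternative. All log2 ratios and log2 intensities in the text were computed from the deposited intensities.

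Background was corrected with normexp (offset 50) and ratios were normalized by loess within arrays in limma 3.58.1 (R 4.3.3). Aquantile scaling between arrays gave the levels per sample. Control spots and outlier spots had weight 0 in loess. Of 55681 probes 27509 had a gene name by accession. The filter and the choice of the brightest probe left 22123 items, 14285 with a symbol. The median spot had an intensity of 97 to 105 (Cy3) and 220 to 245.5 (Cy5), with local backgrounds of 51 to 57 and 141 to 144. The arrays marked 26914 to 30524 probes per sample as above background. The 4 arrays limit the precision.

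Genotype was tested on the 4 log2 ratios with a dye term (2 residual degrees of freedom), sex on array means (2 residual degrees of freedom) and sex by genotype on the ratios with a dye term (1 residual degree of freedom). The p-values are 2-sided limma values with Benjamini-Hochberg adjustment across the 22123 items. The shared array pairs the samples. Over replicates 1 to 4, the members of a pair deviated together from their genotype's mean with correlations of 0.695, 0.683, 0.680 and 0.782. Each pair shares its sex, and with means taken within each sex the correlations were 0.0729 for male and -0.266 for female pairs. The fits were run on simulated data with planted log2 changes of 1 and 2, larger than any difference of a synthetase gene here. Those runs do not speak to changes of the sizes reported.

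The members and lists were chosen with earlier results of these data known. Values in every sample are given for up to 6 genes per comparison past the adjusted threshold and, within each compartment, up to 4 with the largest ratio of the same sign on all arrays. Genes of the accessory and stress lists are named where they passed or had a ratio of the same sign on all arrays, and other genes were named after their values were seen. Of the 28 stress response genes listed, 4 were not measured. How the authors tested for differences is not used here. The values of 1 accessory gene are not reported here.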

Additional observations from a re-analysis of the deposited data

Results flagged for a closer look

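In 4 of the 68 groups of 4 samples of a synthetase gene and genotype, the lowest or highest sample stood far from the other 3. Chance flags about 1 in 20 groups of 4 like samples. Each group here holds both sexes, so the count cannot be set against that rate. Aars had a log2 intensity of 12.25 in mutant replicate 1, below 12.61 to 12.65 in the other mutants. Cars had 10.96 in mutant replicate 1, below 11.36 to 11.42 in the other mutants. Rars had 8.08 in mutant replicate 4, above 7.47 to 7.57 in the other mutants. Vars had 10.15 in wild-type replicate 1, above 9.49 to 9.56 in the other wild types. Of these 4 samples 3 were on array 1.

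For the bifunctional glutamate and proline enzyme Eprs and the mitochondrial proline enzyme Pars2, both male arrays had the opposite ratio sign to both female arrays. The share of all items with this pattern is not given here. By the mean ratio of each sex, the sign also differed in other members, such as Yars and Vars2. The male minus female difference of the log2 ratio was 0.050 for Eprs and -0.23 for Pars2, and neither passed the limma test of that difference.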

How the results depend on the processing

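The number of synthetase genes past the genotype threshold stayed 0 under all 14 alternatives. The fit with no replicate block drops the pairing by array, and the standard error of Rars2 there was 0.23, against 0.09 in the reported fit. A 0 from that fit therefore adds no support. Over all items the genotype count was 6 in the reported fit, 10 with median centring and 2 without the block. It was 0 with Agilent's processed signals and with the authors' value table, and 1 to 3 with an array left out. The sex by genotype count stayed 0 under all alternatives that could be fitted. Leaving out an array leaves that fit no residual degrees of freedom. The sex count was 11, against 6 with Agilent's processed signals, 6 with no filter on dim probes and 6 with the authors' value table. It was 7 without scaling between arrays, and lower than 11 with an array left out. The count was higher in 2 settings. It was 13 of 33 with all 8 channels well above background (7 higher and 6 lower in males). With each channel fitted as its own value it was 15 of 34 (9 higher and 6 lower). Higher against lower in males was 6 to 5 in the reported fit and 5 to 1 in each of the settings with 6. The cause of these differences between settings was not tested. The sex difference of Cars2 was 0.069 with the mean of its kept probes, which disagree. Of the 11 genes Hars2 passed under 14 of 14 alternatives, Farsb and Wars2 under 12, Iars2, Rars2 and Yars2 under 11, Hars and Nars under 7, Qars under 6, Cars2 under 5 and Mars under 4. Over all items the sex count was 9681, against 2542 to 8546 with an array left out, and the sex by genotype count was 31, against 224 with median centring, 66 with no filter, 54 with every probe as an item and 0 with the processed signals, an offset of 16, the authors' value table or no dye term. Signal over background limits Yars, which was well above background in 7 of 8 channels.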
